A study of Rattus norvegicus with 15 samples.

Results

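The genes described here are 38 interferon-stimulated genes, followed across 5 ages of rat knee articular cartilage. The list names antiviral effectors, RNA sensors, transcription factors, ubiquitin-like modifiers and antigen-processing genes that interferons are known to switch on. Members were found by symbol: a probe set, the group of array probes that reports 1 transcript, stood for a gene where its annotation gave that single symbol. Where a gene had more than 1 such probe set (only Usp18), the one with the highest mean over all arrays was taken. Of the 38 listed genes, 35 were measured, out of 18166 genes named by a single-symbol probe set. Oas3, Eif2ak2 and Bst2 had no probe set with a single symbol and were not analysed here.

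The tissue was right-knee articular cartilage, taken from Sprague-Dawley rats and frozen at harvest, and each array received total RNA of 1 sample. The 5 groups, with 3 biological replicates each and 15 arrays in all, began with T0, newborn, and T1, youth. T2 was adult, and the elderly rats formed T3 for the early stage and T4 for the latter stage. No treatment or genotype separated the groups, and the labels used here give neither age in days nor sex, nor say whether a sample is 1 animal or a pool. The labels of T1 replicate 3 conflict: its source name says adult, while its other labels say youth, and it was kept at T1. The signal is a deposited log2 value, so a difference of 1 is a 2-fold difference. Levels of different genes were not compared, since each probe set has its own brightness.

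Interferons are secreted proteins that cells release when they sense viral nucleic acid, damaged DNA or inflammatory cues. Type I interferons bind the receptor Ifnar1 with Ifnar2, whose kinases Jak1 and Tyk2 activate the transcription factor complex ISGF3, in which Stat2 and Irf9 take part. ISGF3 binds the interferon-stimulated response element (ISRE) in the promoters of the genes described here, while interferon gamma acts on the gamma-activated site (GAS). In joints the response is known from synovium and marrow-derived cells as well as from chondrocytes.

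The arrays differed in ways that bear on what follows. Of 10 cartilage markers, 9 were measured, and the mean of the cartilage collagen Col2a1 went from 12.36 at T0 through 12.50, 11.91 and 9.70 to 8.0 at T4. Erythroid markers had array medians of 4.92 to 6.42 at T0 and 10.2 to 10.9 at T1 to T3, and neutrophil and myeloid markers 4.91 to 6.47 at T0 and 8.99 to 11.4 at T1 to T3, so RNA of blood or marrow cells was present beside that of cartilage. Skeletal muscle markers had array medians of 10.6 to 11.2 at T0, 8.77 to 9.20 at T1 and 5.15 to 5.50 at T2. Muscle RNA was thus present too, with its highest signals in the newborn samples. The T4 arrays had a compressed scale: the SD over probe sets was 1.48 to 1.71 on them against 1.83 to 2.05 on the other arrays. The median over 1185 olfactory receptor genes, which cartilage is not known to use, was 3.57 to 4.38 at T4 against 2.84 to 3.41 before. Median signals of 55 ribosomal protein genes were 6.61 in T4 replicate 1, 8.92 to 9.04 in the other T4 arrays and 9.64 to 10.1 elsewhere.

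The ISRE is the sequence that these genes are known to share, and its core was looked for in windows from 250 bases before to 50 bases after 1 transcript start a gene, as placed in the RefSeq table used (GRCr8). The core searched was GAAANNGAAA, which reads TTTCNNTTTC on the other strand, and both strands were scanned. Of the 35 measured genes, 28 had a window, placed at the outer end of the gene's RefSeq span for 13 and at a start inside that span for the other 15. Of these windows 17 (60.7%) held the core, against 1312 of all 33469 windows (3.92%). The GAS core searched, TTCNNNGAA, reads the same on both strands and was in 5 of 28 windows (17.9%) against 8.87% of all windows. The lines that follow show 30 bases around the core, 5′ to 3′ on the gene's own strand with the core in capitals. The members have different roles: a transcription factor, an RNA sensor, antiviral effectors, ADP-ribosylation (Dtx3l), a guanylate-binding protein (Gbp5), antigen processing and a galectin.
Irf7: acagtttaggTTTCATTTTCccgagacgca
Ifih1: gaagagaatcGAAACAGAAAccgatgtgtg
Rsad2: ctggttcaacTTTCATTTTCagaaaacaga
Ifit3: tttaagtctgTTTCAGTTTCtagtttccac
Isg20: taatgaaccaGAAACTGAAActaaaacggc
Dtx3l: cccgggaaacGAAACTGAAActttgcctct
Gbp5: acttgtgtagTTTCAATTTCagtttagagg
Psmb8: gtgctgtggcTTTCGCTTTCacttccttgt
Lgals9: gtagctgtggTTTCTGTTTCctagctgagt
These stretches lie at chr1:205800073-205800102, minus strand (Irf7), chr3:67684008-67684037, minus strand (Ifih1), chr6:48788248-48788277, minus strand (Rsad2) and chr1:241527272-241527301, plus strand (Ifit3). The others lie at chr1:142239957-142239986, plus strand (Isg20), chr11:78320225-78320254, plus strand (Dtx3l), chr2:233910933-233910962, plus strand (Gbp5), chr20:4657016-4657045, minus strand (Psmb8) and chr10:64428067-64428096, minus strand (Lgals9). In Irf7 the core spans bases -69 to -60 from the window's transcript start, in Ifit3 -44 to -35 and in Lgals9 -16 to -7, whereas in Dtx3l it lies after that start, at 11 to 20. Windows without the core included those of Irf9, Stat2, Irf1, Herc6, Cmpk2 and Mx1.

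The 250 bases before the window's transcript start are shown in full for Irf7, a gene that rose strongly after birth, and for Oas1a, whose course over the ages was unlike that of the other members. The Irf7 stretch is chr1:205800024-205800273 (minus strand) and the Oas1a stretch chr12:41330216-41330465 (plus strand), with the ISRE cores in capitals. These starts lie 520 bases inside the RefSeq span of Irf7 and 43 bases inside that of Oas1a, so the stretches overlap those genes.
Irf7: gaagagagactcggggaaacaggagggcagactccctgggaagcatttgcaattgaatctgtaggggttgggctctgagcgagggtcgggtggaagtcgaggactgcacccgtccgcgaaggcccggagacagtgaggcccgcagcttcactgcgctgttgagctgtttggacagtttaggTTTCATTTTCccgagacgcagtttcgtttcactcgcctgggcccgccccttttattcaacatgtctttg
Oas1a: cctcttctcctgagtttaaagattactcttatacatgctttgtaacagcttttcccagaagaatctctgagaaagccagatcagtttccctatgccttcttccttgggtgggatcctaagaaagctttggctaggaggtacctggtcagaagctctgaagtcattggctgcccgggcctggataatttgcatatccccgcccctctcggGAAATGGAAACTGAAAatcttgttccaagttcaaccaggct
The Oas1a stretch holds a pair of overlapping cores at bases -41 to -26, which is 2 matches in one run. Members with a core had a median newborn-to-youth difference of 1.98 (n = 17, 13 rose) and those without one a median of 1.99 (n = 11, 10 rose). The 7 members without a window are in neither group, and the difference between the groups was not tested. Among members without a core, window starts lay 1398 bases inside the RefSeq span for Parp9, 700 for Cmpk2 and 414 for Irf9. Members with a core also had such starts, as in Irf7 and Isg20 (5330 bases). The core shown for Dtx3l lies inside the RefSeq span of Parp9. A member counted without a core may therefore hold one outside its window. A match is a string of letters and not a measured binding site.

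Over the 5 ages the genes were low in newborn cartilage, high in youth and adult cartilage and lower again in elderly cartilage. The median of the 35 gene means was 5.03 in newborns, 7.15 in youth, 7.56 in adults, 6.44 at T3 and 5.71 at T4. Newborn was the lowest stage for 25 members and latter-stage elderly for 10. Adult was the highest stage for 26, youth for 8 and latter-stage elderly for 1, the oligoadenylate synthetase Oas1a. The heat map of members by array shows this course together with a single adult array that stands out.

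**Figure D1:**
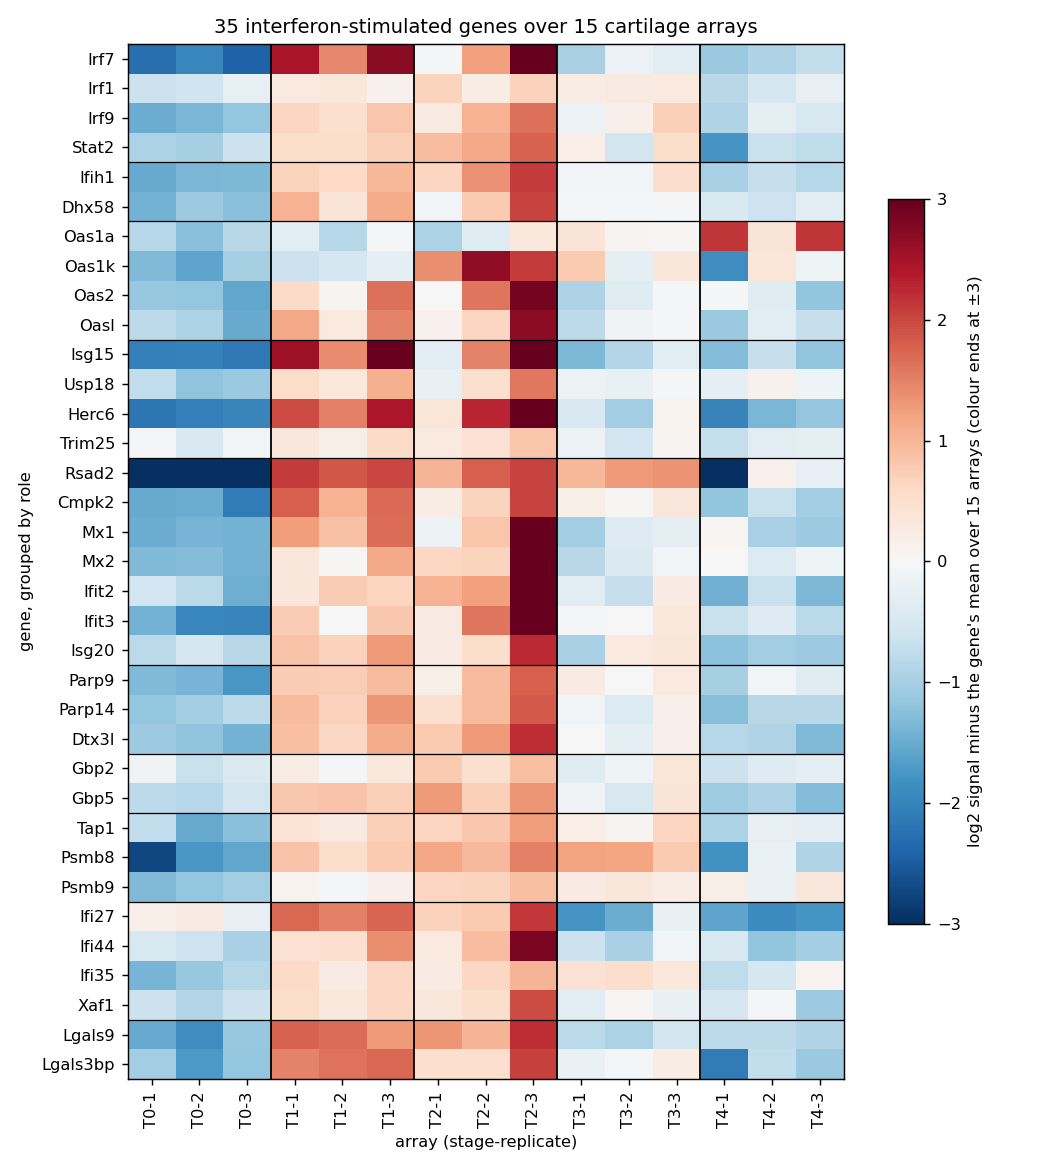
Heat map of the 35 measured interferon-stimulated genes (rows, grouped by role) over 15 arrays (columns, stage and replicate); colour is the log2 signal minus the gene's mean over the 15 arrays, and the colour scale ends at 3 on either side. The T0 columns are blue in most rows, T2 replicate 3 is the reddest column, and Oas1a is red in T4 replicates 1 and 3.

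From newborn to youth every one of the 35 genes was higher, by 0.56 to 5.57 on the log2 scale with a median of 1.98, while the median over all genes was -0.03. With limma, 28 of the 35 rose at an adjusted p under 0.05 and none fell, and 33 had an unadjusted p under 0.05. Among all 18166 genes 6.28% rose and 4.93% fell by the same rule, and 4104 had an unadjusted p under 0.05. Oas1a, Oas1k, Gbp2, Trim25, Ifit2, Ifi44 and Xaf1 did not pass. Leaving out T1 replicate 3, the array with the conflicting label, gave 18 calls and a median of 1.62, and placing it with the adults gave 19 calls and the same median. The 10 calls lost without it were Irf1, Stat2, Oas2, Oasl, Usp18, Mx1, Mx2, Ifit3, Isg20 and Ifi27, with adjusted p-values of 0.0522 to 0.210. The other 18 were kept under all 16 alternatives, among them Rsad2, Irf7, Isg15 and Lgals9. From newborn to adult, 32 rose and none fell (9.25% and 9.56% of all genes), with a median of 2.32, and 31 were called without T2 replicate 3, where Isg20 had an adjusted p of 0.0661.

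Markers of blood and marrow cells moved over the same step. All 5 measured erythroid markers rose (median 5.30), as did 10 of 12 neutrophil and myeloid markers (median 3.38), 6 of 6 B cell markers (median 3.17), 5 of 10 T and NK cell markers and 3 of 11 macrophage markers. Array medians of the B cell list were 4.83 to 5.52 at T0 and 7.97 to 8.23 at T1, and those of the macrophage list 6.60 to 6.70 and 7.38 to 7.51. Of 7 plasmacytoid dendritic cell markers, 1 rose and 1 fell, and of 9 cartilage markers none was called. Skeletal muscle markers went the other way, and 5 of 6 fell (median -1.95). From newborn to adult all 5 erythroid markers (median 4.87), 11 of 12 neutrophil and myeloid (median 5.30) and 6 of 6 B cell markers (median 3.01) rose, while 6 of 9 cartilage markers (median -1.51) and 6 of 6 skeletal muscle markers (median -5.60) fell. RMA signals have no zero, so no marker can be said to be absent. In bulk tissue more cells of a type and more RNA per cell cannot be told apart, and the part of these cells in the rise of the interferon-stimulated genes was not tested.

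**Figure D2:**
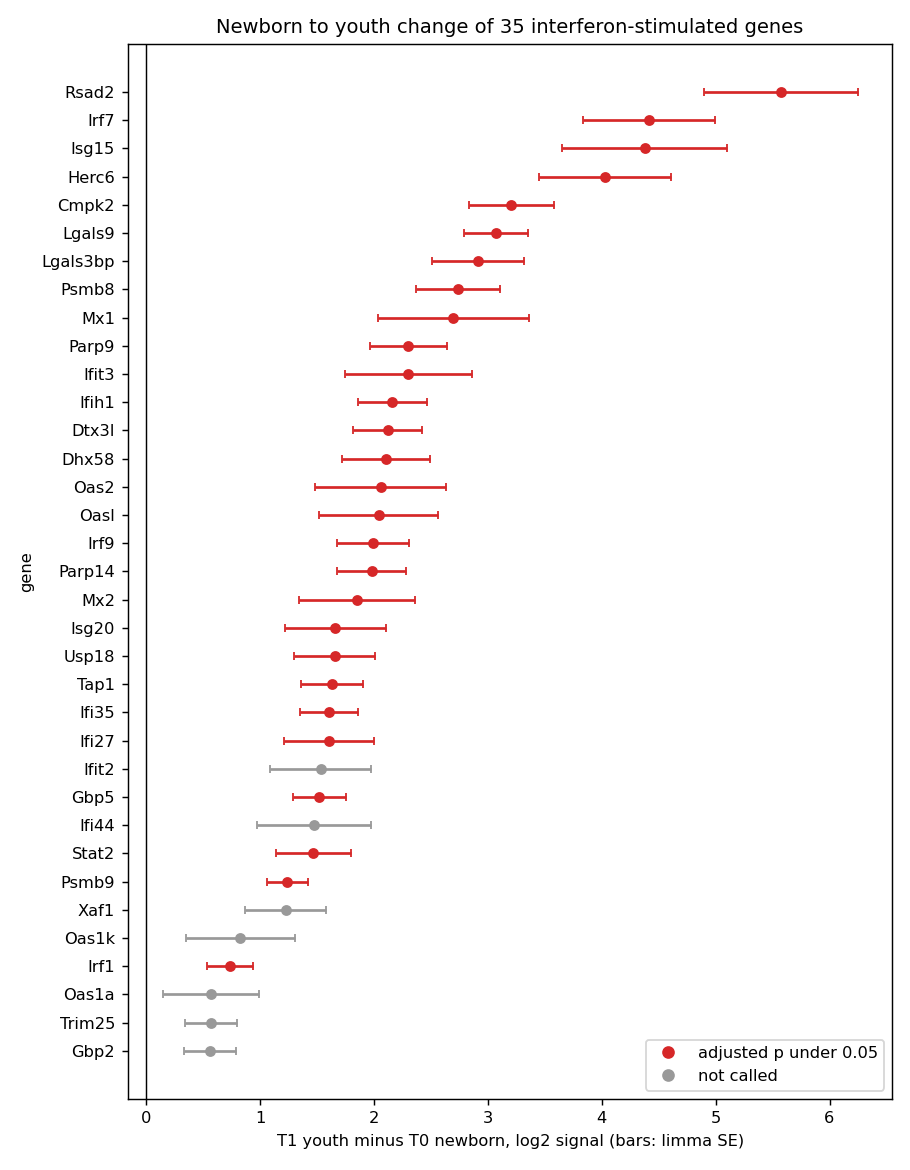
Difference between youth and newborn (T1 minus T0, log2 signal) for each of the 35 measured genes, with bars of 1 limma standard error on either side; red points passed an adjusted p under 0.05 and grey points did not. All 35 points lie above 0, from 0.56 for Gbp2 to 5.57 for Rsad2.

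All 4 transcription factors among the measured members rose from newborn to youth. Irf7, the factor that amplifies type I interferon production, read 4.75, 5.05 and 4.59 at T0, 9.46, 8.44 and 9.72 at T1, 6.95, 8.24 and 10.16 at T2, 6.03, 6.83 and 6.69 at T3 and 5.89, 6.08 and 6.26 at T4. The newborn arrays lay below all others, and the adult arrays were spread over more than 3 log2 units. Its newborn-to-youth rise was 4.41 (SE 0.58), or 21.3-fold, with adjusted p = 0.000206. Irf9, the DNA-binding subunit of ISGF3, read 5.67, 5.79 and 5.99 at T0, 7.80, 7.64 and 7.98 at T1, 7.41, 8.20 and 8.79 at T2, 6.98, 7.30 and 7.86 at T3 and 6.25, 6.88 and 6.67 at T4. It rose by 1.99 (SE 0.32) with adjusted p = 0.000947, and no adult or youth array overlapped the newborn ones. Stat2, the partner of Irf9 in ISGF3, read 5.77, 5.71 and 6.06 at T0, 7.28, 7.24 and 7.43 at T1, 7.64, 7.86 and 8.49 at T2, 6.92, 6.16 and 7.23 at T3 and 4.94, 6.05 and 5.95 at T4. Its rise was 1.47 (SE 0.33) with adjusted p = 0.0112, and from T3 to T4 it fell by 1.12 (SE 0.33), to signals that overlap the newborn range. Irf1, an early responder to interferon gamma, read 6.05, 6.11 and 6.46 at T0, 6.99, 7.02 and 6.82 at T1, 7.36, 6.91 and 7.40 at T2, 6.92, 6.97 and 6.99 at T3 and 5.86, 6.19 and 6.46 at T4. It changed least of the 4, rising by 0.74 (SE 0.21) with adjusted p = 0.0417, a call lost under several alternatives, and it fell by 0.79 (SE 0.21) from T3 to T4.

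Both measured RNA sensors rose. Ifih1, which encodes the double-stranded RNA sensor MDA5, read 4.82, 4.95 and 4.97 at T0, 6.98, 6.93 and 7.32 at T1, 6.96, 7.68 and 8.43 at T2, 6.24, 6.23 and 6.84 at T3 and 5.35, 5.63 and 5.47 at T4. The newborn arrays lay close together and every later array was higher. Ifih1 rose by 2.16 (SE 0.30) with adjusted p = 0.00032, and it fell from T3 to T4 by 0.95 (SE 0.30). Dhx58, which encodes the sensor's regulator LGP2, read 4.16, 4.48 and 4.33 at T0, 6.63, 5.97 and 6.70 at T1, 5.50, 6.37 and 7.62 at T2, 5.51, 5.55 and 5.55 at T3 and 5.12, 4.97 and 5.24 at T4. It rose by 2.11 (SE 0.38) with adjusted p = 0.00254, and its 3 early-stage elderly arrays were nearly equal while its adult arrays were not.

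The oligoadenylate synthetases, which make the messenger that activates RNase L, split into different courses. Oas2 read 4.20, 4.18 and 3.80 at T0, 5.92, 5.43 and 7.01 at T1, 5.37, 6.96 and 8.23 at T2, 4.43, 4.99 and 5.30 at T3 and 5.31, 4.98 and 4.18 at T4. It rose by 2.06 (SE 0.58) with adjusted p = 0.0429, and Oas2 was lost under several alternatives. Oasl, a synthetase-like protein, read 4.87, 4.70 and 4.15 at T0, 6.78, 5.94 and 7.14 at T1, 5.78, 6.30 and 8.34 at T2, 4.87, 5.54 and 5.60 at T3 and 4.55, 5.31 and 4.96 at T4 and rose by 2.04 (SE 0.52) with adjusted p = 0.0255. In both genes the T2 arrays covered more than 2 log2 units. Oas1k read 5.23, 4.98 and 5.55 at T0, 5.92, 6.04 and 6.28 at T1, 7.95, 9.23 and 8.67 at T2, 7.34, 6.27 and 6.89 at T3 and 4.69, 6.93 and 6.44 at T4. It was the single member called between youth and adult, where it rose by 2.53 (SE 0.48), or 5.79-fold, with adjusted p = 0.0226 and no overlap of the arrays. Oas1k was not called when any one of the T1 arrays, T2 replicate 2 or T2 replicate 3 was left out, with adjusted p-values of 0.0626 to 0.121. Oas1a read 5.10, 4.71 and 5.14 at T0, 5.62, 5.12 and 5.91 at T1, 5.02, 5.60 and 6.28 at T2, 6.34, 6.04 and 5.99 at T3 and 8.11, 6.35 and 8.11 at T4. It was the single member to rise from T3 to T4, by 1.40 (SE 0.42) with adjusted p = 0.0177, and T4 replicate 2 lay close to the T3 arrays. Oas1a was not called without T3 replicate 3, T4 replicate 1 or T4 replicate 3, with adjusted p-values of 0.0538 to 0.0771. After quantile normalization Trim25 rose as well, by 0.61 in place of -0.22. Oas1a and Oas1k belong to a cluster of near-identical Oas1 copies in the rat, whose transcripts array probes may not separate, so the assignment to one copy is uncertain.

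In the system of the ubiquitin-like protein ISG15, 3 of 4 members rose. Isg15, the modifier itself, read 3.05, 3.07 and 2.95 at T0, 7.64, 6.51 and 8.06 at T1, 4.79, 6.58 and 8.91 at T2, 3.75, 4.21 and 4.79 at T3 and 3.79, 4.40 and 3.90 at T4. The newborn arrays lay together near 3, and the adult arrays ran from 4.79 to 8.91. Olfactory receptor genes had T0 medians of 2.89 to 3.03, so the newborn Isg15 signals may be background. Isg15 rose by 4.38 (SE 0.72), or 20.8-fold, with adjusted p = 0.00128. Herc6, a ligase of the HERC family that attaches ISG15 in mice, read 3.95, 4.08 and 4.14 at T0, 8.09, 7.62 and 8.53 at T1, 6.48, 8.41 and 9.69 at T2, 5.66, 5.09 and 6.23 at T3 and 4.12, 4.76 and 4.95 at T4. It rose by 4.03 (SE 0.58), or 16.3-fold, with adjusted p = 0.000442. From T2 to T3 Herc6 differed by -2.54 (SE 0.58) without passing (adjusted p = 0.0686), although no T3 array reached a T2 array. Usp18, the protease that removes ISG15 and blocks the receptor, rose by 1.66. Trim25, a ubiquitin ligase that activates RNA sensing, differed by 0.57 and was not called.

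Among the other antiviral effectors 6 of 7 rose. Rsad2, which encodes viperin, an enzyme that makes a chain-terminating nucleotide, read 5.41, 4.97 and 4.71 at T0, 10.70, 10.48 and 10.62 at T1, 9.63, 10.41 and 10.65 at T2, 9.61, 9.90 and 9.96 at T3 and 5.03, 8.73 and 8.36 at T4. From T1 to T3 all arrays lay between 9.61 and 10.70, and only the newborn arrays and T4 replicate 1 lay near 5. The newborn-to-youth rise of 5.57 (SE 0.68), or 47.5-fold, was the largest of the 35 members (adjusted p = 0.000109). That SE draws on the spread in all 5 stages, and the SD of Rsad2 was 0.35 at T0, 0.11 at T1 and 2.04 at T4. From T3 to T4 Rsad2 fell by 2.45 (SE 0.68) with adjusted p = 0.0112, and without T4 replicate 1 by 1.28 with adjusted p = 0.00556. Cmpk2, the nucleotide kinase next to Rsad2 that supplies its substrate, read 5.58, 5.61 and 5.0 at T0, 8.89, 8.14 and 8.79 at T1, 7.31, 7.76 and 9.11 at T2, 7.28, 7.13 and 7.44 at T3 and 5.92, 6.44 and 6.05 at T4. It rose by 3.21 (SE 0.37) with adjusted p = 7.82e-05 and fell by 1.15 (SE 0.37) from T3 to T4. The dynamin-like GTPases Mx1 and Mx2, which block viral nucleocapsids, rose by 2.70 and 1.85. Of the RNA-binding Ifit proteins Ifit3 rose by 2.30, while Ifit2 differed by 1.53 with adjusted p = 0.0515. The exonuclease gene Isg20 rose by 1.66.

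**Figure D3:**
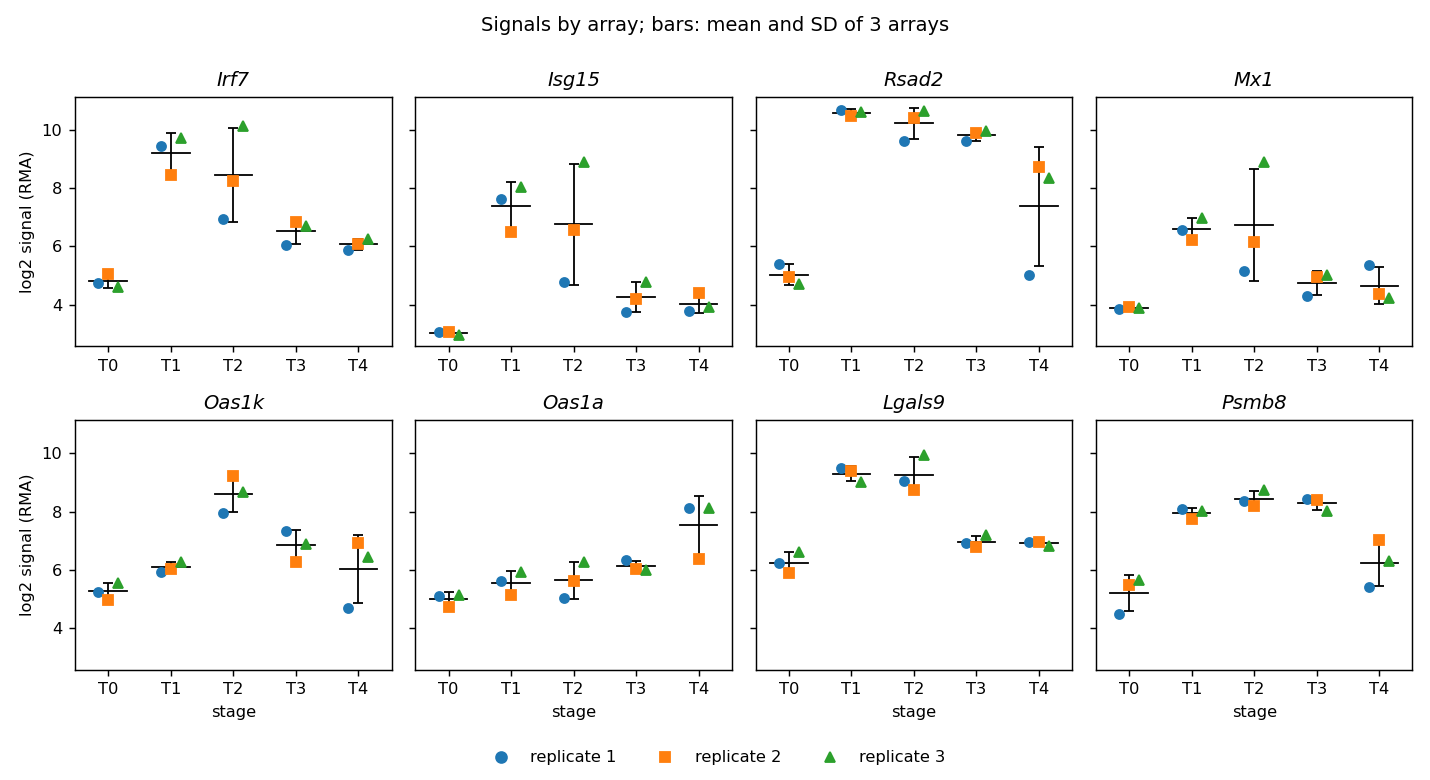
Log2 signal of 8 members in each array by stage (3 arrays a stage, symbols give the replicate number; bars are the mean and 1 SD on either side). Irf7, Isg15, Rsad2 and Mx1 rise from T0 to T1, Oas1k peaks at T2, Oas1a is highest at T4, Lgals9 drops from T2 to T3 and Psmb8 drops from T3 to T4.

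The 3 ADP-ribosylation genes rose together from newborn to youth. Dtx3l, a ubiquitin ligase that works as a pair with Parp9, read 5.17, 5.06 and 4.86 at T0, 7.17, 6.89 and 7.39 at T1, 7.07, 7.56 and 8.50 at T2, 6.28, 5.98 and 6.44 at T3 and 5.42, 5.38 and 4.96 at T4. Parp9 read 5.29, 5.21 and 4.86 at T0, 7.35, 7.35 and 7.56 at T1, 6.79, 7.54 and 8.40 at T2, 6.86, 6.59 and 6.89 at T3 and 5.60, 6.53 and 6.24 at T4. Parp14, a mono-ADP-ribosyltransferase, read 5.15, 5.31 and 5.55 at T0, 7.28, 7.02 and 7.65 at T1, 6.80, 7.27 and 8.16 at T2, 6.24, 5.92 and 6.47 at T3 and 5.04, 5.50 and 5.50 at T4. In all 3 genes the T0 arrays lay below every T1 and T2 array. The rises were 2.12 (SE 0.30) for Dtx3l, 2.30 (SE 0.34) for Parp9 and 1.98 (SE 0.31) for Parp14, with adjusted p-values of 0.00038, 0.000476 and 0.000737. Dtx3l and Parp14 fell from T3 to T4, by 0.98 and 0.86.

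Of the guanylate-binding proteins, GTPases that attack pathogen membranes, 1 of 2 rose. Gbp5 read 4.14, 4.07 and 4.36 at T0, 5.73, 5.77 and 5.62 at T1, 6.19, 5.63 and 6.23 at T2, 4.82, 4.44 and 5.30 at T3 and 3.85, 3.99 and 3.62 at T4. The newborn and latter-stage elderly arrays lay below all the others. Gbp5 rose by 1.52 (SE 0.23) with adjusted p = 0.000713 and fell by 1.03 (SE 0.23) from T3 to T4. Gbp2 read 4.30, 3.74 and 3.98 at T0, 4.64, 4.35 and 4.71 at T1, 5.20, 4.88 and 5.31 at T2, 4.06, 4.27 and 4.77 at T3 and 3.76, 4.02 and 4.11 at T4. It differed by 0.56 (SE 0.23) between newborn and youth (adjusted p = 0.21), and from newborn to adult it rose by 1.13 (SE 0.23) with adjusted p = 0.00322.

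The 3 antigen-processing genes rose together. Psmb8, a catalytic subunit of the immunoproteasome, read 4.49, 5.47 and 5.65 at T0, 8.07, 7.74 and 8.02 at T1, 8.37, 8.21 and 8.73 at T2, 8.43, 8.41 and 8.01 at T3 and 5.40, 7.02 and 6.32 at T4. From T1 to T3 its arrays lay between 7.74 and 8.73, and all T4 arrays lay below them. Psmb8 rose by 2.74 (SE 0.37) with adjusted p = 0.00025 and fell from T3 to T4 by 2.04 (SE 0.37) with adjusted p = 0.00132. Psmb9, another immunoproteasome subunit, read 5.31, 5.46 and 5.59 at T0, 6.73, 6.56 and 6.78 at T1, 7.26, 7.29 and 7.52 at T2, 6.88, 6.97 and 6.85 at T3 and 6.80, 6.44 and 6.96 at T4 and rose by 1.24 (SE 0.18) with adjusted p = 0.000476. Its SD over the adult arrays, 0.14, was the smallest of the 35 members. Tap1, a subunit of the peptide transporter of the endoplasmic reticulum, read 5.92, 5.14 and 5.39 at T0, 7.07, 6.91 and 7.37 at T1, 7.30, 7.47 and 7.91 at T2, 6.85, 6.74 and 7.30 at T3 and 5.71, 6.41 and 6.36 at T4. It rose by 1.63 (SE 0.27) with adjusted p = 0.00128 and fell by 0.80 (SE 0.27) from T3 to T4.

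Among the 4 small interferon-induced and apoptosis proteins, 2 rose. Ifi35, a cytosolic protein that partners with Nmi, read 4.46, 4.71 and 4.98 at T0, 6.43, 6.08 and 6.45 at T1, 6.08, 6.46 and 6.86 at T2, 6.27, 6.38 and 6.16 at T3 and 5.09, 5.32 and 5.91 at T4. It rose by 1.61 (SE 0.25) with adjusted p = 0.000854 and fell by 0.83 (SE 0.25) from T3 to T4. Ifi27, a mitochondrial membrane protein, read 9.25, 9.37 and 8.86 at T0, 10.83, 10.63 and 10.84 at T1, 9.80, 9.90 and 11.22 at T2, 7.33, 7.63 and 8.88 at T3 and 7.52, 7.20 and 7.33 at T4. Its mean was 9.16 at T0, above the 7.95 of T3 and the 7.35 of T4. Ifi27 rose by 1.60 (SE 0.39) with adjusted p = 0.0198 and fell from T2 to T3 by 2.36 (SE 0.39), or 5.14-fold, with adjusted p = 0.0388. Ifi44 and Xaf1 differed by 1.47 and 1.22 from newborn to youth, with adjusted p-values of 0.109 and 0.0518.

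A galectin and a galectin-binding protein both rose. Lgals9, a secreted sugar-binding protein of immune regulation, read 6.22, 5.88 and 6.61 at T0, 9.50, 9.40 and 9.02 at T1, 9.06, 8.75 and 9.95 at T2, 6.93, 6.78 and 7.18 at T3 and 6.94, 6.95 and 6.83 at T4. Its youth and adult arrays formed one high group and its elderly arrays a low one just above newborn. Lgals9 rose by 3.07 (SE 0.28), or 8.4-fold, with adjusted p = 9.61e-06, the smallest adjusted p of the 35. It fell from T2 to T3 by 2.29 (SE 0.28), or 4.88-fold, with adjusted p = 0.00864. Lgals3bp, a galectin-binding glycoprotein, read 7.15, 6.45 and 7.02 at T0, 9.66, 9.81 and 9.89 at T1, 8.68, 8.69 and 10.24 at T2, 7.98, 8.14 and 8.40 at T3 and 6.09, 7.43 and 7.07 at T4. It rose by 2.91 (SE 0.40) with adjusted p = 0.000302 and fell by 1.31 (SE 0.40) from T3 to T4.

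Between youth and adult 1 of the 35 genes rose, Oas1k, and none fell, where 0.633% of all genes rose and the same share fell (39.8% of calls were rises after quantile normalization, against 50%). The median difference was 0.19, with 27 members higher and 8 lower and 5 at an unadjusted p under 0.05. Of all 18166 genes 8828 were higher, 9338 were lower and 1798 had an unadjusted p under 0.05. Without T2 replicate 3 the median turned to -0.06. Over the same step neutrophil and myeloid markers had a median difference of 1.58, all 12 higher and 1 called, and all 6 skeletal muscle markers fell (median -3.80).

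The adult arrays differed from each other in these genes more than any other stage did. The median SD over 3 arrays was 0.79 for the members at T2, against 0.23 at T0 and at T1, 0.33 at T3 and 0.32 at T4, while over all genes it was 0.17 at T2. An SD above 1 was found for 12 members at T2 (34.3%) and for 0.374% of all genes. T2 replicate 3 was the highest of the 3 adult arrays in 34 of 35 members (97.1%, against 29.4% of all genes), and T2 replicate 1 was the lowest in 30 (85.7%, against 34.6%). Array medians of the members were 6.95 in replicate 1, 7.47 in replicate 2 and 8.54 in replicate 3.

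Replicate 3 exceeded replicate 1 in all 35 members, with a median difference of 1.47 where that of all genes was -0.01. The gap was above 1 in 24 members (68.6%) and in 0.65% of all genes. It was 4.13 (17.5-fold) for Isg15, 3.73 (13.2-fold) for Mx1, 3.24 for Ifit3, 3.21 for Herc6 and 3.20 for Irf7. The 7 smallest gaps were 0.05 for Irf1 and Gbp5, 0.11 for Gbp2, 0.26 for Psmb9, 0.35 for Psmb8, 0.55 for Trim25 and 0.62 for Tap1. Among these Gbp2, Gbp5, Irf1 and Psmb8 had their lowest adult signal in replicate 2. These are single arrays, so the differences between them have no test.

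Marker lists separated the same pair of arrays much less. Replicate 3 minus replicate 1 had a median of 0.32 for erythroid, 0.19 for neutrophil and myeloid, -0.10 for B cell, -0.13 for T and NK cell, -0.12 for macrophage and 0.22 for plasmacytoid dendritic cell markers. Cartilage markers differed by -0.31 and endothelial markers by -0.33. The median over 8 interferon ligands was 0.04 and over 8 receptors and kinases -0.20. Ifnk read 2.60, 2.68 and 2.78 in the adult arrays and Ifnl3 5.33, 5.36 and 5.39. Olfactory receptor medians there were 2.84 to 2.96, so low ligand signals may be background. The 20 further interferon-stimulated genes outside the 38 had a median of 0.48, with 15 higher and a range from -1.12 to 1.98, beside 1.47 for the members. Sensing genes had a median of 0.17, restraining genes -0.02 and class I genes 0.14. Their ranges were -0.82 to 1.82, -0.16 to 1.78 and -0.33 to 0.47, so single genes of the sensing and restraining lists differed as much as members. The plot of adult signals by member shows how unevenly the gap was shared among the members.

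**Figure D4:**
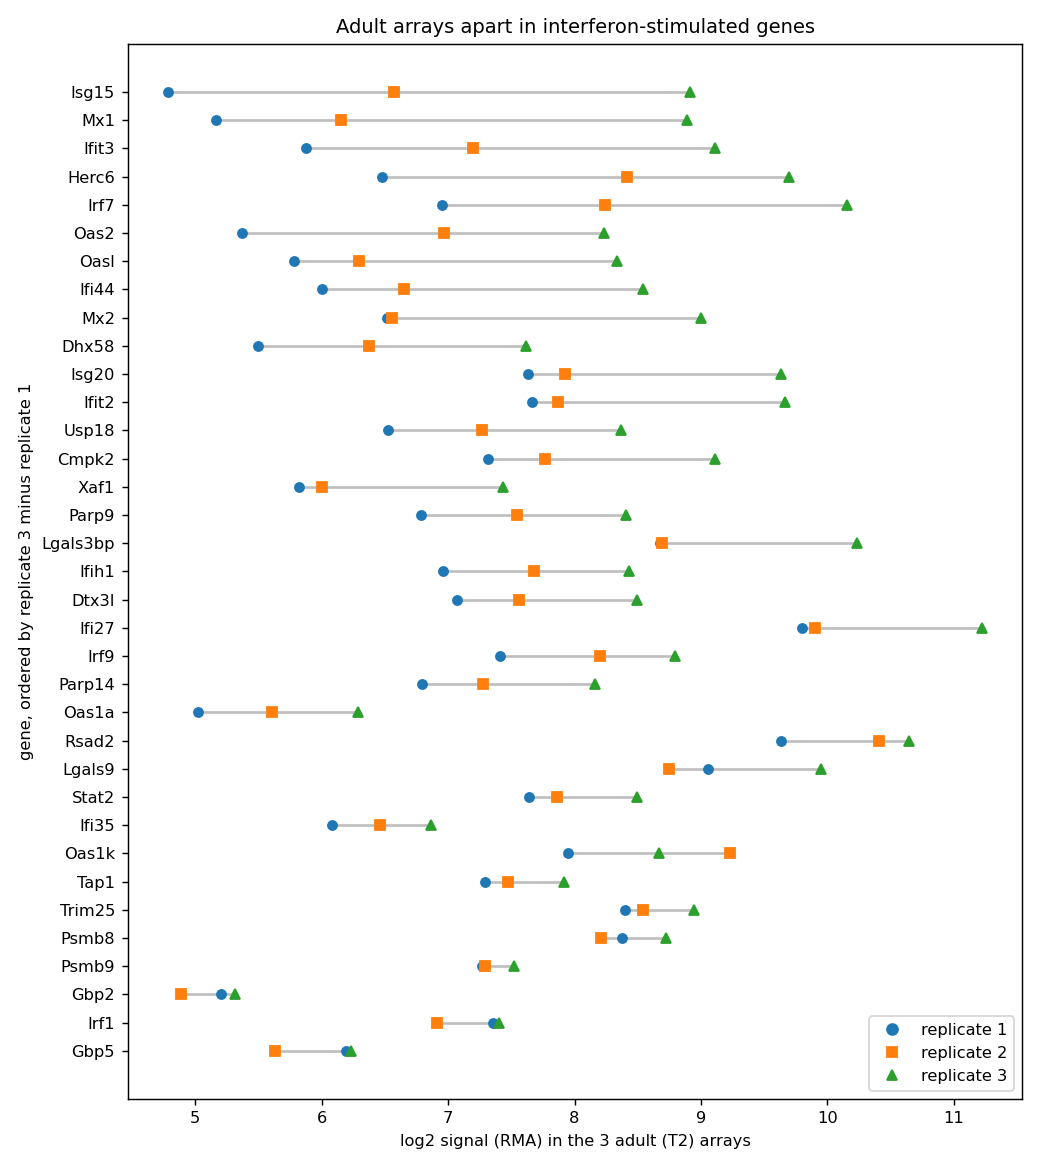
Log2 signal of the 35 members in the 3 adult arrays (symbols give the replicate number, the grey line joins the lowest and highest), ordered by replicate 3 minus replicate 1. The gap runs from 4.13 for Isg15 at the top to 0.05 for Gbp5 at the bottom, and replicate 3 is highest in all but Oas1k.

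A smaller gap of the same kind was present among the youth arrays. T1 replicate 3 was the highest in 28 members (80%, against 29.7% of all genes) and T1 replicate 2 the lowest in 28 (80%, against 30.6%), with a median difference of 0.39 between them. It reached 1.57 for Oas2 and 1.56 for Isg15 and was -0.39 for Lgals9. Neutrophil and myeloid markers differed by 0.52 and skeletal muscle markers by -0.67 between the same arrays, and their part in the gap was not tested. At T3, replicate 3 was the highest in 27 members (77.1%, against 41.7% of all genes).

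**Figure D5:**
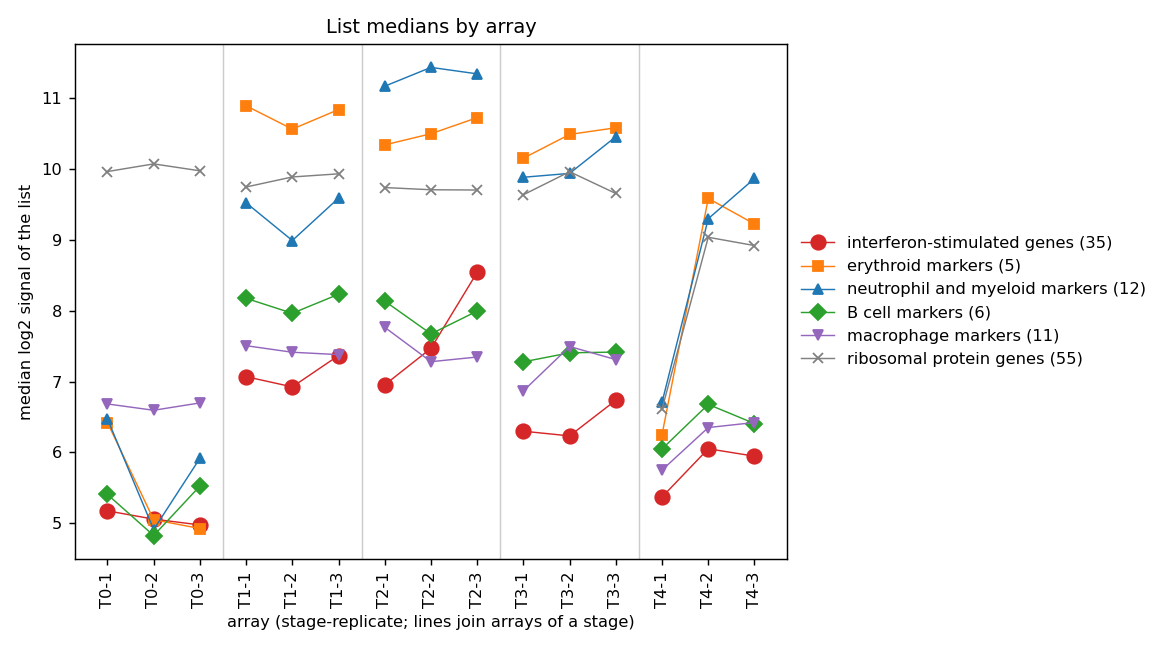
Median log2 signal per array of the 35 interferon-stimulated genes, of 4 marker lists and of 55 ribosomal protein genes; lines join arrays of a stage. Over the adult arrays the members run from 6.95 to 8.54, the erythroid markers from 10.3 to 10.7 and the neutrophil and myeloid markers from 11.2 to 11.4. The erythroid, myeloid and ribosomal medians are far lower in T4 replicate 1 than in the other T4 arrays.

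From adult to early-stage elderly 34 of 35 members were lower, with a median of -1.17 where all genes had 0.01, and 28 had an unadjusted p under 0.05. Of all 18166 genes 8854 were lower and 3317 had an unadjusted p under 0.05. After adjustment 2 fell, Ifi27 and Lgals9, and none rose, against 0.116% and 0.022% of all genes (16% of calls were rises, and 0% after quantile normalization). Leaving out T3 replicate 3 gave 14 calls and leaving out T2 replicate 3 or T3 replicate 2 gave none, with adjusted p-values of 0.0672 to 0.172 for the lost genes. Ifi27 was also not called without T2 replicate 1 or T3 replicate 1, and without T2 replicate 3 the median was -0.70. Herc6 differed by -2.54, Isg15 by -2.51 and Irf7 by -1.93 without passing, with adjusted p-values of 0.0686, 0.10 and 0.108. Cartilage markers were lower over the same step in 9 of 9 (2 fell, median -1.5) and neutrophil and myeloid markers in 9 of 12 (none called, median -0.85), and their part in the difference was not tested.

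From early-stage to latter-stage elderly 12 members fell and 1 rose. Of all genes 32.3% fell and 14% rose over this step, so the share of members that fell, 34.3%, lay near the background and is no result about these genes. Rises made up 30.2% of all calls, and 44.6% after quantile normalization. Without T3 replicate 3 or without T4 replicate 1 there were 5 calls, and Stat2, Ifih1, Oas1a, Cmpk2, Parp14, Tap1 and Lgals3bp were lost both times, with adjusted p-values of 0.0538 to 0.117. Dtx3l was lost without T3 replicate 3 and Ifi35 without T4 replicate 1, and without T4 replicate 3 Oas1a, Cmpk2 and Dtx3l were lost. The median was -0.70, beside -0.15 over all genes. From adult to latter-stage elderly 33 members fell and Oas1a rose, by 1.89 (SE 0.42), while 38.4% of all genes fell and 25% rose. The median of that difference was -2.08 against -0.12 over all genes, and -1.5 without T2 replicate 3. Without that array Isg15 had a difference of -1.65 in place of -2.73 and Mx1 -1.0 in place of -2.08, both still called. Usp18 was the single member not called, with -0.70 and adjusted p = 0.105 for the probe set taken. With the mean of its probe sets the difference was -2.19 with adjusted p = 0.00146. Usp18 was also called after median centring, with array weights, with T1 replicate 3 placed with T2 and without T2 replicate 1. Over this step 8 of 9 cartilage (median -3.12), 8 of 12 neutrophil and myeloid (median -2.24), 6 of 6 B cell (median -1.52) and 8 of 11 macrophage markers (median -1.13) fell, as did 10 of 10 class I genes (median -1.98), and their part in the difference was not tested. After quantile normalization Trim25 and Psmb9 turned to 0.13 and 0.22 and were not called, and median centring moved the median of all genes to -0.30. The T4 scale was compressed as given above, and age and the state of these arrays cannot be told apart.

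Other genes of the pathway were followed over the same steps, first between newborn and youth, where 6.28% of all genes rose. A single call in a list of 8 genes is no result about the list. None of 8 measured interferon ligands was called, with stage means of 3.49 and 3.43 for Ifnb1 and 4.57 and 4.22 for Ifng. Ifnk had means of 2.63 and 2.65 and Ifnl3 of 5.72 and 5.39. Olfactory receptor genes had array medians of 2.89 to 3.03 at T0 and 2.87 to 2.95 at T1. Low ligand signals may therefore be background, and the lack of calls does not show that ligand RNA was unchanged. Of 8 receptors and kinases 1 rose, the receptor-associated kinase Tyk2 (0.97 (SE 0.22)). Of 10 genes of nucleic acid sensing 2 rose, the endosomal RNA receptor Tlr7 (1.5 (SE 0.26)) and the mitochondrial adaptor Mavs (0.89 (SE 0.21)). Of 10 genes that restrain the response 3 rose: the phosphatase Ptpn6 (2.91 (SE 0.47)), the nucleotide hydrolase Samhd1 (1.83 (SE 0.38)) and the RNA editor Adar (1.69 (SE 0.34)).

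Of 20 further interferon-stimulated genes outside the 38, 10 rose and none fell, with a median of 0.98. They included the antibody receptor Trim21 (2.35 (SE 0.30)), the immunity-related GTPase Ifi47 (2.15 (SE 0.28)) and the nuclear body protein Sp110 (2.07 (SE 0.29)). Of 10 other genes of class I antigen presentation 4 rose, among them tapasin, Tapbp (1.63 (SE 0.22)), Tap2 (1.20 (SE 0.31)) and the peptide trimmer Erap1 (1.08 (SE 0.26)). No gene of these 6 lists was called between youth and adult. From T2 to T3 Tlr7 fell by 1.52 (SE 0.26) and the proteasome activator Psme1 by 1.31 (SE 0.21), and no other gene of the lists was called.

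From T3 to T4 all 8 ligands were higher and 4 rose, where 14% of all genes rose. Ifna1 rose by 1.21 (SE 0.35), Ifna4 by 0.88 (SE 0.32), Ifna5 by 1.11 (SE 0.36) and Ifng by 1.11 (SE 0.21). The arrays overlapped for Ifna4 and Ifna5. The median of the 1185 olfactory receptor genes rose over the same arrays from 3.00 to 3.41 up to 3.57 to 4.38, and the part of this shift in the ligand values was not tested. Receptors and kinases fell in 6 of 8, where Il10rb fell by 2.00 (SE 0.40), Jak1 by 1.76 (SE 0.37) and Jak2 by 1.49 (SE 0.30), while Ifnlr1 rose. Falls were also called for 4 of 10 sensing genes, 6 of 10 restraining genes, 6 of 20 further interferon-stimulated genes and 7 of 10 class I genes, against the 32.3% of all genes given above.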

How the data were processed

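Total RNA of 15 cartilage samples was hybridised to RaGene-2_0-st arrays, which hold 36685 probe sets. The deposited values are log2 signals made with RMA, which corrects background, normalizes between arrays and summarises probes, per the submitters' processing notes. The genome build, array library file and software version were not given in the sources used here. Of the probe sets, 18511 had 1 gene symbol in the platform annotation, 575 several and 17599 none, and 1 probe set stood for each of 18166 genes. There are no detection calls, so the background level of a probe set is not marked, and 3 arrays a stage limit the precision. No array pair was a repeat (highest correlation 0.981).

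A mean per stage was fitted over all 15 arrays with limma 3.58.1 (lmFit and eBayes, R 4.3.3), and 6 comparisons of stages were made. p-values were adjusted by Benjamini-Hochberg over all 36685 probe sets, and a call is an adjusted p under 0.05. The labels call the samples biological replicates without naming animals, so p-values measure the spread between these samples. The fit was tested on simulated data for T0 against T1, with independent noise and the same SD of a gene in every stage. Stages of unequal spread, as found here, were not simulated. The members and lists were chosen with earlier results of these data known. Given array by array are, in each role, the 2 members with the smallest p from T0 to T1 and any called in a later step. Other genes of the pathway are named up to 3 per list and step. Alternatives were the replicate number as a block, median centring, quantile normalization, other sets of arrays in the fit, T1 replicate 3 placed with the adults, array weights, a variance trend, a filter at a stage mean of 5, the mean of a gene's probe sets, and leaving out each array.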

Additional observations from a re-analysis of the deposited data

How the results depend on the processing

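Array weights, the variance trend and the filter on low signals were run for calls only. Under the other alternatives the direction of the median held for every comparison except T1 to T2, where it was -0.06 without T2 replicate 3. Newborn-to-adult and adult-to-T4 calls stayed within 30 to 35 throughout, and the median SD of the members at T2 stayed between 0.70 and 0.79 over its 4 alternatives. From T0 to T1 the median was 1.76 after quantile normalization and 1.62 with T1 replicate 3 placed with T2. Leaving out arrays gave 18 to 24 calls and medians of 1.62 to 2.08, and quantile normalization gave 22 calls. More members were called with only the 6 arrays compared (32), array weights (34), the variance trend (30) and the filter on low signals (30). Ifit2 and Xaf1 were called in each of these. From T1 to T2 the calls were 0 after quantile normalization or with T1 replicate 3 moved, 2 in the fit without the T4 arrays, 5 with array weights, and 0 to 2 leaving out arrays. From T2 to T3 they were 1 after quantile normalization, 0 with only the 6 arrays compared, 10 without the T4 arrays, 28 with array weights, 4 with the filter on low signals, and 0 to 14 leaving out arrays. From T3 to T4 they were 8 after quantile normalization, 1 (Psmb8) with only the 6 arrays compared, and 5 to 15 leaving out arrays. From T2 to T4 Trim25 turned to 0.13 and Psmb9 to 0.22 after quantile normalization. Fits on 6 arrays hold fewer samples and leave out the spread of the other stages. The cause of these shifts was not tested. The array weights stopped before reaching their convergence tolerance. Replicate numbers did not pair the samples (correlations of same-numbered deviations from -0.19 to 0.12 over 18 pairs). With the replicate block 26, 1, 2 and 14 members were called in the 4 successive steps, in place of 28, 1, 2 and 13.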

Other observations

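Among the 40 genes with the largest gap between the adult arrays of replicate 3 and replicate 1, 17 were members of the list. The other 23 held further genes known from the interferon response, named here after their values were seen: Oasl2, Oas1b and Oas1i of the synthetase family, Ifit1, the nucleic acid sensor Zbp1, the ISG15-conjugating enzyme Ube2l6, the chaperone Rtp4, Samd9l, Znfx1 and Samhd1. Also among them were Slfn4, Ifi27l2b, Trim30d, the mast cell and basophil protease Mcpt8 and the natural killer cell receptors Klrk1, Ly49si1 and Ly49i3. The listed T and NK cell markers had a median of -0.13 between the same arrays, with 2 of 10 higher in replicate 3. Between replicate 3 and replicate 2, 10 of the 40 genes with the largest gap were members, and the other 30 held the eosinophil genes Epx, Prg2, Prg3, Ear1 and Il5ra. Between the adult arrays of replicate 2 and replicate 1, 6 of the 40 genes with the largest gap were members: Herc6, Isg15, Oas2, Ifit3, Irf7 and Oas1k.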
